A study of Homo sapiens with 14 samples.

Results

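Among 17810 genes listed for the OmoMYC experiment, the 6 described here are CHRNA1, SLC24A2, SIM1, RGCC, DMRTA1 and KCNS2. They were chosen by their measured fold change between OmoMYC and EGFP cells, as the largest falls at a mean of at least 1 CPM, the count of a gene scaled to library size. That contrast is therefore given for them as a description and without a test. All 6 passed the low-count filter in both experiments, which left 13803 genes in the first and 14470 of 19143 listed genes in the second.

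CHP-134 cells are a human neuroblastoma line, established in culture, with amplified MYCN. In the first experiment, CHP-134 cells carried a Tet-inducible lentiviral cassette for either EGFP or OmoMYC, a mutated dimerization domain of MYC, and received 1 µg/ml doxycycline for 3 days in tetracycline-approved serum (3 libraries each). EGFP and OmoMYC cells were made by separate transduction and drug selection, so a difference between the selected populations and an effect of OmoMYC cannot be told apart. In the second experiment, unmodified parental CHP-134 cells in normal serum, without doxycycline, received 500 nM dTAG47 or DMSO for 18 h (4 libraries each). dTAG47 recruits cereblon to proteins that carry a mutant FKBP12 tag, and parental cells carry no such tag. Total RNA was depleted of ribosomal RNA and sequenced, and reads were counted per gene.

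MYC family proteins pair with MAX and bind E-box DNA, most strongly CACGTG, while OmoMYC joins these pairs and displaces MYC proteins from them. The 6 genes fall into 3 kinds. CHRNA1, SLC24A2 and KCNS2 encode membrane proteins that move or gate ions, SIM1 and DMRTA1 encode transcription factors of development, and RGCC encodes a regulator of the cell cycle. Muscle-type acetylcholine receptors, retinal and neuronal calcium exchangers and hypothalamic regulators are best known outside the sympathetic lineage from which neuroblastoma arises.

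Libraries held 28060817 to 38358128 counts in the first experiment and 40861430 to 53451641 in the second. MYC, whose sequence OmoMYC shares in part, rose from between 16 and 20 counts with EGFP to between 15040 and 20295 with OmoMYC, and reads of the transgene and of the endogenous gene cannot be told apart. MYCN, the amplified gene, stood at 2713 ± 266 CPM in EGFP cells, and OmoMYC cells held 2240 ± 66.0 CPM (SD, n = 3, as for all values of this experiment). The log2 fold change of MYCN was -0.28 (edgeR adjusted p = 0.0103). None of the 9 adrenergic neuroblastoma markers was at 3 counts or fewer in every library of a group, and they had a summed level of 1722 to 1942 CPM with EGFP and 2019 to 2091 CPM with OmoMYC, although TH and DBH, the catecholamine enzymes among them, were low, at 0.238 ± 0.0927 and 0.405 ± 0.202 CPM with EGFP. Skeletal muscle markers summed to 24.2 to 29.9 CPM with EGFP and 29.4 to 32.8 CPM with OmoMYC, mostly from CKM, creatine kinase. Of the 7 muscle markers listed, 2 were at 3 counts or fewer in every EGFP library. Fibroblast markers summed to 74.0 to 79.0 CPM with EGFP, 52.2 to 61.1 CPM with OmoMYC and 29.0 to 31.7 CPM with DMSO, and leukocyte markers stayed at or under 1.45 CPM in every library. The part of these shifts in the results was not tested. EGFP replicate 1 stood apart from its group, with chi-square values of 21.9 and 43.9 per degree of freedom, where counting error alone gives about 1, against the other EGFP libraries, which gave 8.21 against each other. Within the parental experiment, DMSO replicates 1 and 2 gave 2.67 and replicates 3 and 4 gave 3.22, against 8.97 to 11.6 for pairs across these sets. dTAG47 replicate 2 gave 8.43 to 23.4 against the other dTAG47 libraries, which gave 2.70 to 8.70.

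The promoters of the 6 genes were searched for E-boxes, the sites that MYC pairs bind. RefSeq promoters (GRCh38.p14) were found for 5 of the 6 genes, with 2 start sites for SIM1, and the 250 bases before each start were read on both strands. The 2 windows below are shown because they mark the extremes among the genes. Capitals mark each CG dinucleotide and, in CHRNA1, the CAGCTG match. The CHRNA1 window is chr2:174764473-174764722 on the minus strand and the RGCC window is chr13:41457300-41457549 on the plus strand.
CHRNA1: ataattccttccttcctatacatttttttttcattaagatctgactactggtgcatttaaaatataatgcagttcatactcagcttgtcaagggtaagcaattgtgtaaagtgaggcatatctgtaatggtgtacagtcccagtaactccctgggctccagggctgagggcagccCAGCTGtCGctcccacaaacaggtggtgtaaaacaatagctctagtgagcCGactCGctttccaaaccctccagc
RGCC: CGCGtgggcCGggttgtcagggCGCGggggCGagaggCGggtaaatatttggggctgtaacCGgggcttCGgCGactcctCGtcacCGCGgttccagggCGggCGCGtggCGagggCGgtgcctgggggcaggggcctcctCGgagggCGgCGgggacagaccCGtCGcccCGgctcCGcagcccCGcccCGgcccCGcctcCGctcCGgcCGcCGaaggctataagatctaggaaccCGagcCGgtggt

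No CACGTG was found in any of these 6 windows, and 6.34% of 35116 promoter windows of the same length, from 27305 genes, hold one. CACATG, read on the other strand as CATGTG, was likewise not found, and 9.42% of all windows hold it. CAGCTG, an E-box form used by myogenic factors, occurred once in CHRNA1, 75 bases before the start, and occurs in 14% of all windows. TATAAA was not found in any of the 6 windows, and 10.7% of all windows hold it. Other E-box forms were not searched for, and the printed CHRNA1 window holds CAGGTG and CAATTG in small letters. A window without the searched forms is therefore not a window without E-boxes. The searched letters say nothing on binding outside or inside these windows. CG dinucleotides set the genes apart from each other. CHRNA1 had 3 CG dinucleotides and 44.8% G+C, and DMRTA1 had 13 and 61.6%. SLC24A2 had 25, SIM1 had 23 and 25 at its start sites, and RGCC had 34, with 75.2% G+C. The median over all windows was 11 CG dinucleotides and 58% G+C, so CHRNA1 alone lay under it.

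The genes lie on 5 chromosomes (hg19, GENCODE annotation lifted to GRCh37). CHRNA1 (ENSG00000138435.10) spans chr2:175612320-175652663 on the minus strand, and its canonical transcript has 9 exons. SLC24A2 (ENSG00000155886.7) spans chr9:19507450-19789035 on the minus strand with 11 exons, and SIM1 (ENSG00000112246.5) spans chr6:100832885-100912797 on the minus strand with 12 exons. RGCC (ENSG00000102760.12) spans chr13:42031686-42045007 on the plus strand with 5 exons. DMRTA1 (ENSG00000176399.3) spans chr9:22446823-22455739 and KCNS2 (ENSG00000156486.7) spans chr8:99439186-99445081, both on the plus strand with 2 exons. KCNS2 lies wholly within the span of STK3, a kinase gene on the opposite strand, without shared exon bases. CHRNA1 shares 162 exon bases with an antisense lncRNA, and SIM1-AS1 overlaps SIM1 outside its exons. The strand setting of the counting was not given in the sources used here, so reads of CHRNA1 and of its antisense partner may not be separated, and neither may reads of KCNS2 and of STK3 introns.

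**Figure D1:**
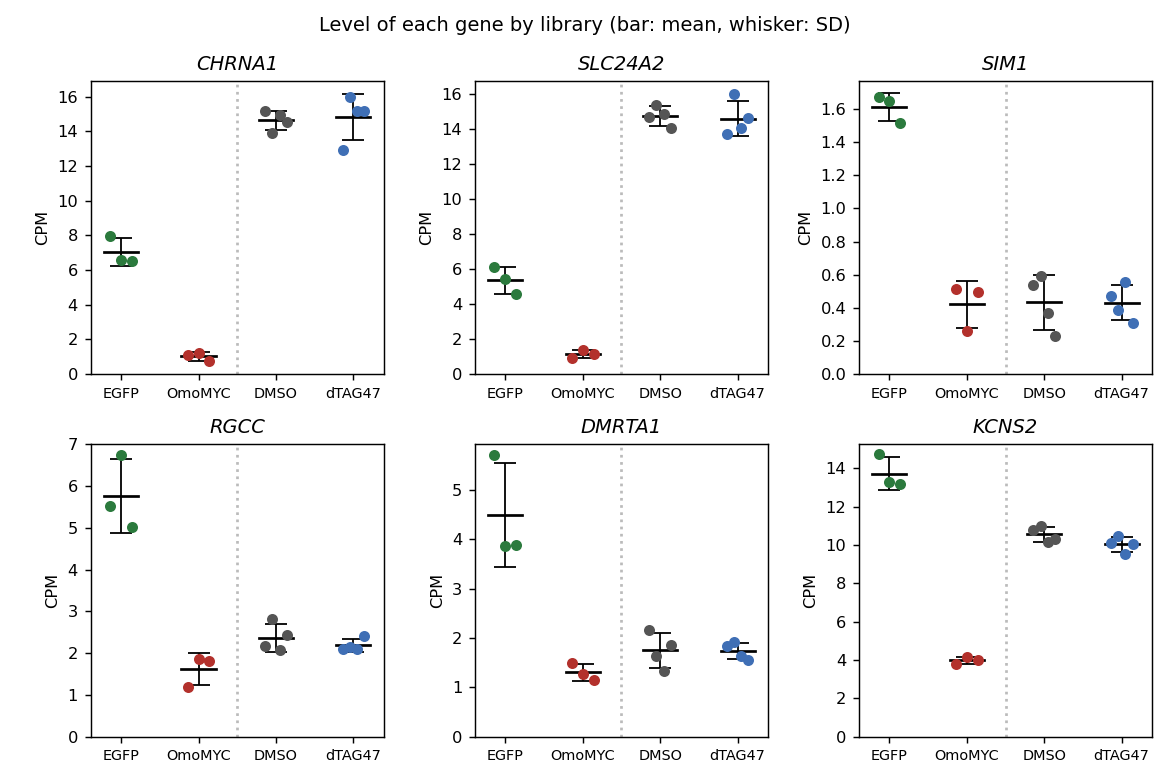
Level of each of the 6 genes in CPM (vertical axis, linear from 0) in each of the 14 libraries by group, with points for libraries, a bar for the mean and whiskers for the SD. OmoMYC libraries lie below EGFP libraries in every panel, DMSO and dTAG47 libraries overlap in every panel, and the parental libraries lie above EGFP only for CHRNA1 and SLC24A2; the dotted line separates the experiments, which were scaled separately.

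CHRNA1 had the largest fall of the 6. It encodes the alpha subunit of the muscle-type nicotinic receptor, a cation channel that opens on acetylcholine at the neuromuscular junction. Its level was 7.98, 6.59 and 6.54 CPM in EGFP replicates 1 to 3 and 1.09, 1.25 and 0.756 CPM in OmoMYC replicates 1 to 3. No OmoMYC library reached the lowest EGFP library. The log2 fold change was -2.75 (SE 0.18), which left the mean OmoMYC level at 14.7% of the EGFP level. In bulk RNA, fewer cells that express a gene and less RNA per cell cannot be told apart, here and for each gene below.

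SLC24A2 encodes a plasma membrane exchanger that moves calcium and potassium out of the cell in return for sodium, known from cone photoreceptors and neurons. EGFP replicates 1 to 3 held 6.09, 5.41 and 4.55 CPM, and OmoMYC replicates 1 to 3 held 0.921, 1.40 and 1.15 CPM. The groups did not overlap, and the highest OmoMYC library was replicate 2. The log2 fold change was -2.19 (SE 0.19), with the OmoMYC mean at 21.7% of the EGFP mean.

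KCNS2 encodes an electrically silent potassium channel subunit, which carries no current alone and changes the gating of the potassium channels it joins, KCNB2 among them. With EGFP it stood at 14.7, 13.3 and 13.2 CPM in replicates 1 to 3. With OmoMYC it stood at 3.82, 4.18 and 3.98 CPM. Both groups were tight, with an SD of 6.38% of the mean with EGFP and 4.50% with OmoMYC, and they lay far apart. The log2 fold change was -1.78 (SE 0.11), the smallest fall and the smallest error of the 6. STK3, which contains KCNS2 in its span, went from 11.6 ± 1.18 to 5.36 ± 0.437 CPM (log2 fold change -1.12, edgeR adjusted p = 3.82e-05), and the part of STK3 reads in the KCNS2 values was not tested.

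SIM1 encodes a bHLH-PAS transcription factor that pairs with ARNT2 and is needed for neurons of the paraventricular hypothalamus. Its level was 1.67, 1.65 and 1.52 CPM in EGFP replicates and 0.512, 0.260 and 0.493 CPM in OmoMYC replicates. The counts behind these levels were low, 44 to 53 with EGFP and 10 to 15 with OmoMYC. All EGFP libraries lay above all OmoMYC libraries. The log2 fold change was -1.96 with the largest error of the 6 (SE 0.27).

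DMRTA1 encodes a DM domain transcription factor of the family of doublesex. EGFP replicates 1 to 3 held 5.71, 3.87 and 3.89 CPM, and OmoMYC replicates 1 to 3 held 1.501, 1.27 and 1.15 CPM. The groups did not overlap, although EGFP replicate 1 was well above the other two. The log2 fold change was -1.79 (SE 0.20) over all libraries and -1.59 (SE 0.19) without that library.

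RGCC encodes a cytoplasmic and nuclear protein that binds the mitotic kinase CDK1 and was first found as a response gene to complement. Its level was 5.52, 6.73 and 5.03 CPM in EGFP replicates 1 to 3 and 1.19, 1.87 and 1.81 CPM in OmoMYC replicates 1 to 3. The groups were again apart, with the highest value in EGFP replicate 2. The log2 fold change was -1.81 (SE 0.19). Per length of exons, RGCC was the most abundant of the 6 genes with EGFP, at 5.59 ± 0.852 RPKM, above KCNS2 at 2.53 ± 0.162, CHRNA1 at 1.41 ± 0.164, DMRTA1 at 0.804 ± 0.189, SLC24A2 at 0.486 ± 0.0703 and SIM1 at 0.174 ± 0.00908 RPKM (SD, n = 3).

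Over all tested genes, 30.3% had every OmoMYC library below every EGFP library, as the 6 genes did, and nothing is read from that count because the same contrast chose them. The fit was repeated without EGFP replicate 1, which stood apart from its group. Without it, the log2 fold changes were -2.66 for CHRNA1, -2.09 for SLC24A2, -1.95 for SIM1, -1.85 for RGCC and -1.74 for KCNS2. The median log2 fold change of all tested genes was 0.01. Over all genes, 25.7% were called lower and 27.3% were called higher at an adjusted p below 0.05, with a median log2 fold change of -0.45 among those called lower.

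The order of the 6 genes near the limit of the choice was close. KCNS2 was the last gene inside at -1.78. The genes set beside it here were counted among called genes without overlap between the groups. Just outside lay AC008132.13 at -1.76 (SE 0.22), ALDH1A1, a retinaldehyde dehydrogenase, at -1.71 (SE 0.19), PRDM1, a repressor of transcription, at -1.57 (SE 0.15), and PDE1A, a calcium-dependent phosphodiesterase, at -1.56 (SE 0.16). The first 2 of them differed from KCNS2 by less than a standard error. The minimum level mattered as well, since 15 genes under 1 CPM fell at least as much as KCNS2, among them GALNT5 at -1.99 and a mean of 0.888 CPM. SIM1 passed the minimum narrowly, at a mean of 1.02 CPM.

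**Figure D2:**
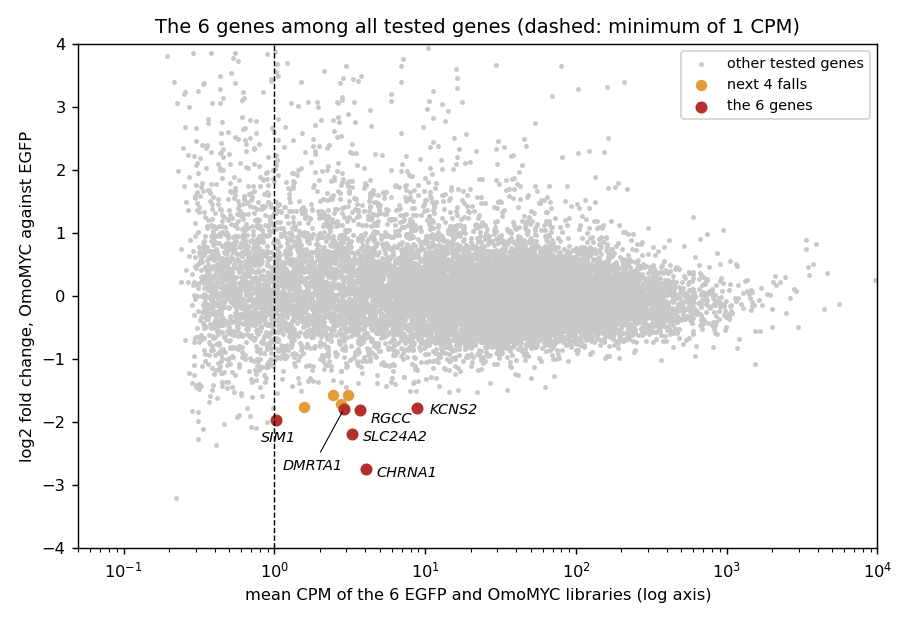
Log2 fold change of OmoMYC against EGFP (vertical axis) against the mean CPM of the 6 libraries (horizontal log axis) for the tested genes; 72 genes lie outside the axes. The 6 genes (red) lie between -2.75 and -1.78 at the lower edge of the cloud, SIM1 next to the dashed minimum of 1 CPM, and the next 4 falls (orange) lie just above them.

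Profiles over the 6 EGFP and OmoMYC libraries were compared by the root mean square difference of centred log2 CPM, where 0 means the same profile. Among themselves, DMRTA1 and KCNS2 were closest at 0.188, and CHRNA1 and SIM1 were farthest apart at 0.623. The nearest other genes at a mean of at least 1 CPM were few and recurred. TES, a focal adhesion protein, was among the 2 nearest for CHRNA1 (0.618), SLC24A2 (0.376), DMRTA1 (0.172) and KCNS2 (0.144). PDE1A was among them for DMRTA1 (0.207) and KCNS2 (0.143), and PREX2, a Rac exchange factor, for SLC24A2 (0.360) and RGCC (0.262). The remaining nearest genes were ALDH1A1 for CHRNA1 (0.555), PPAP2B, a lipid phosphatase, for RGCC (0.259), and AC008132.13 (0.226) and PRDM1 (0.235) for SIM1. The nearest gene to CHRNA1, which had the largest fall, was less close than that of each of the other 5. These distances use the libraries that chose the 6 genes and depend on the size of the fall. Nothing is therefore read from which genes were nearest or how near they were.

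The parental experiment played no part in the choice and could be tested. It asked whether dTAG47 itself changes expression in cells without a tagged protein. None of the 6 genes was called, against a background of 0.0415% of genes called lower and 0.117% called higher. None had an unadjusted p below 0.05 by edgeR, which 1053 of all 14470 tested genes had. DESeq2 also called 0 of the 6. CHRNA1 stood at 15.2, 13.9, 14.9 and 14.5 CPM in DMSO replicates 1 to 4 and 12.9, 16.0, 15.2 and 15.2 CPM in dTAG47 replicates 1 to 4. The dTAG47 libraries surrounded the DMSO libraries, and the log2 fold change was 0.02 (95% interval -0.12 to 0.17, edgeR adjusted p = 0.934). SLC24A2 stood at 14.7, 15.4, 14.9 and 14.05 CPM with DMSO and 13.7, 16.0, 14.04 and 14.6 CPM with dTAG47. These groups overlapped over nearly their whole range, with a log2 fold change of -0.01 (95% interval -0.15 to 0.12, edgeR adjusted p = 0.956).

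KCNS2 stood at 10.8, 10.98, 10.2 and 10.3 CPM with DMSO and 10.1, 10.5, 9.52 and 10.0 CPM with dTAG47. The groups overlapped, and the log2 fold change was -0.07 (95% interval -0.21 to 0.06, edgeR adjusted p = 0.741). RGCC stood at 2.16, 2.83, 2.07 and 2.43 CPM with DMSO and 2.09, 2.15, 2.09 and 2.41 CPM with dTAG47. DMSO replicate 2 was highest, and the interval of the log2 fold change, -0.12 (-0.38 to 0.15), included 0 (edgeR adjusted p = 0.776). DMRTA1 stood at 2.16, 1.64, 1.34 and 1.86 CPM with DMSO and 1.83, 1.91, 1.63 and 1.56 CPM with dTAG47. The groups overlapped, with an interval of -0.34 to 0.30 (edgeR adjusted p = 0.974). SIM1 stood at 0.540, 0.595, 0.366 and 0.233 CPM with DMSO and 0.470, 0.390, 0.557 and 0.309 CPM with dTAG47. Its interval, -0.65 to 0.63 (edgeR adjusted p = 0.995), was the widest, at 12 to 28 counts per library. For CHRNA1, SLC24A2 and KCNS2, changes of more than 0.21 in log2 lay outside the intervals, whereas for SIM1 a change of 0.63 in either direction did not. Without dTAG47 replicate 2, the edgeR adjusted p-values of the 6 genes were 0.422 or higher, and with a term for replicates 1 and 2 against 3 and 4 they were 0.497 or higher.

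**Figure D3:**
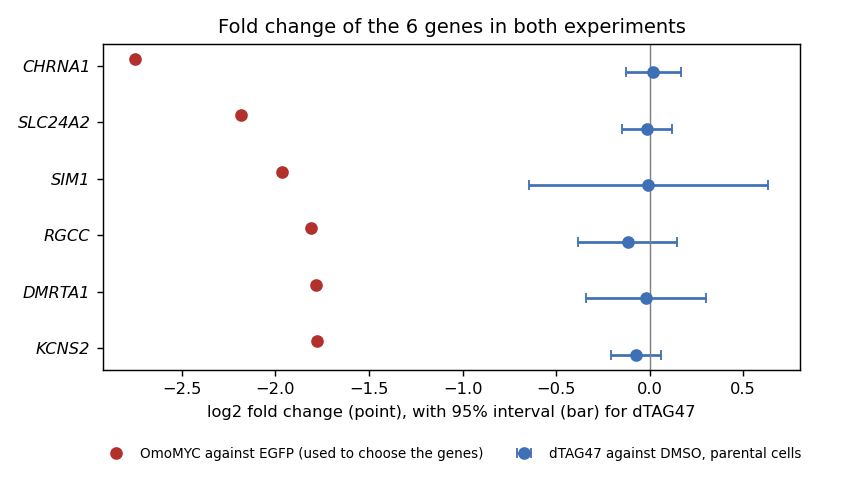
Log2 fold change (horizontal axis, points) of the 6 genes in both experiments, with 95% intervals (bars) for dTAG47 against DMSO. OmoMYC against EGFP (red), the contrast that chose the genes, is drawn without intervals and lies between -2.75 and -1.78, and dTAG47 against DMSO (blue) has intervals that include 0 for all 6 genes, widest for SIM1.

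Set side by side, the control groups of the experiments split the 6 genes. The experiments differ in line, serum, doxycycline and time, and their tables were scaled separately, so these levels were not tested. CHRNA1 and SLC24A2 were higher in parental DMSO libraries than in every EGFP library, at 14.6 ± 0.554 against 7.04 ± 0.817 CPM and at 14.7 ± 0.551 against 5.35 ± 0.773 CPM (SD, n = 4 for DMSO and 3 for EGFP). Over 13673 genes tested in the first experiment and listed in both, 16.9% had every DMSO library above every EGFP library. SIM1, RGCC, DMRTA1 and KCNS2 were lower in every DMSO library than in every EGFP library, which held for 32.6% of these genes. The EGFP levels were part of the choice of the 6 genes, which favours high EGFP levels. Nothing is therefore read from how many of them lay above or below EGFP. The 4 genes differed in how low they were. For KCNS2 and RGCC, the DMSO levels of 10.6 ± 0.385 and 2.37 ± 0.338 CPM lay between those of EGFP and OmoMYC. For SIM1 and DMRTA1, the DMSO levels of 0.433 ± 0.166 and 1.75 ± 0.347 CPM overlapped the OmoMYC levels of 0.421 ± 0.141 and 1.31 ± 0.178 CPM.

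Over the 4 groups, the order of CHRNA1 and of SLC24A2 was thus parental, EGFP and OmoMYC, with DMSO and dTAG47 not apart. RGCC and KCNS2 ran from EGFP through the parental groups, not apart, to OmoMYC. DMRTA1 ran in the same order, with DMSO overlapping OmoMYC. For SIM1 only EGFP stood apart, and the other groups overlapped. With joint scaling of all 14 libraries, these 6 placements held, while over all genes the shares above and below moved to 23.5% and 24.8%. The 126 genes called lower with a log2 fold change of -1 or less and a mean of at least 1 CPM were placed with separate scaling. Of them, 24 (19%) lay wholly above EGFP in DMSO libraries, 65 (51.6%) lay wholly below, and 18 (14.3%) overlapped the OmoMYC libraries. The shares over all genes were 16.9%, 32.6% and 24.6%. With joint scaling, 61 of the 126 lay wholly below. These 126 include the 6 genes and were chosen by their fall, which favours high EGFP and low OmoMYC levels. Nothing is therefore read from how their shares compare with those over all genes.

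Relatives and partners of the 6 genes moved in both directions. Of 88 such genes in 8 lists, 60 were tested, 17 of which fell and 21 of which rose (edgeR adjusted p below 0.05). The share that fell, 28.3%, was near the 25.7% of all genes, and the share that rose, 35%, stood beside 27.3% of all genes. The median log2 fold change of the 60 genes was 0.03, beside 0.01 over all tested genes. In parental cells, 0 of the 64 relatives tested were called with dTAG47 by edgeR, DESeq2 or limma-voom. An unadjusted edgeR p below 0.05 was found for 6 of them, beside 1053 of all 14470 tested genes.

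Of 12 tested nicotinic receptor subunits other than CHRNA1, 3 fell, 2 rose and 7 were not called. CHRNA3, the main ganglionic alpha subunit, fell from 247 ± 8.98 to 206 ± 6.09 CPM (log2 fold change -0.26), CHRNA5 fell by 0.61 and CHRNA9 fell by 0.54 on the log2 scale. CHRNA4 and CHRNB2, which pair in the main brain receptor, rose by 1.56 and 0.35. The subunits that assemble with CHRNA1 in muscle were not called, with log2 fold changes of 0.34 for CHRNB1, -0.05 for CHRND, 0.32 for CHRNG and 0.02 for CHRNE. CHRND had 12.4 ± 1.57 CPM in EGFP cells against 11.9 ± 0.603 CPM in OmoMYC cells, and CHRNG, the fetal subunit, had 10.3 ± 2.08 against 12.9 ± 1.24 CPM.

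Neuromuscular junction genes could be tested for 6 of 12, and 4 of these rose (66.7%, beside 27.3% of all genes). Among the 6, 1 fell (16.7%, beside 25.7% of all genes), and RAPSN and MUSK were among those not tested. AGRN, the nerve-derived organizer of receptor clusters, rose from 6.68 ± 0.993 to 20.4 ± 2.14 CPM (log2 fold change 1.62), while LRP4, its receptor, fell from 8.23 ± 1.27 to 3.91 ± 0.726 CPM (-1.08). DOK7, which activates the receptor kinase MUSK, rose by 1.52, COLQ, the collagen tail of acetylcholinesterase, by 1.92, and RIC3, a chaperone of nicotinic receptors, by 0.71 on the log2 scale. MYOG, a myogenic factor that activates CHRNA1 in muscle, had a log2 fold change of -0.27 that was not called, at 8.35 ± 1.32 CPM with EGFP. MYOD1 had at most 2 counts in any library of this experiment.

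Of 10 tested sodium/calcium exchangers and calcium pumps, 1 fell and 4 rose. SLC24A4, a potassium-dependent exchanger like SLC24A2, fell by 0.97 from 1.77 ± 0.335 CPM. SLC24A1 and SLC24A3, of the same family, rose by 0.35 and 0.64. SLC8A2, a potassium-independent exchanger of neurons, rose from 4.61 ± 0.744 to 20.6 ± 1.04 CPM (log2 fold change 2.17). ATP2B2, a plasma membrane calcium pump, rose by 0.89 from 31.6 ± 4.16 CPM.

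Among silent potassium channel subunits and KCNB2, a channel they join, 3 of 7 tested genes fell and 2 rose. KCNS3, of the same subfamily as KCNS2, fell by 0.87 from 8.22 ± 0.517 CPM, KCNG1 fell by 0.75 from 64.1 ± 9.47 CPM and KCNG3 fell by 0.63. KCNF1 rose by 1.34. The partner channel KCNB2 rose by 0.31, from 30.9 ± 2.58 to 38.2 ± 0.351 CPM.

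Among bHLH-PAS factors, 8 of 14 tested genes were called higher (57.1%, beside 27.3% of all genes) and 3 lower (21.4%, beside 25.7%). ARNT2, the usual partner of SIM1, rose by 0.40 to 141 ± 4.70 CPM, and ARNT had a log2 fold change of 0.03 that was not called. SIM2, the paralogue of SIM1, rose by 1.16, from 0.757 ± 0.0335 to 1.69 ± 0.296 CPM. EPAS1, a hypoxia-inducible factor, rose by 4.04 from 9 to 11 counts per EGFP library, and AHRR, the repressor of the dioxin receptor, by 2.54. NPAS3, a factor of the developing brain, rose by 1.66, and the 3 other rises were 0.41 to 0.71, NPAS1 at the margin with an edgeR adjusted p of 0.0496. The 3 that fell were HIF1A (-0.42), CLOCK (-0.38) and ARNTL (-0.27).

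Only 3 of 8 hypothalamic genes linked to SIM1 had enough counts to be tested. MC4R, the melanocortin receptor of SIM1 neurons, fell by 1.89 from 0.917 ± 0.240 to 0.253 ± 0.0931 CPM, on 20 to 37 counts per EGFP library. POU3F2, a neuronal POU factor, rose by 1.77 from 14.1 ± 0.496 to 48.1 ± 2.45 CPM. OTP was not called, and oxytocin (OXT) and vasopressin (AVP) had at most 1 and 0 counts. No other DMRT gene was tested in this experiment, the highest being DMRTA2 with at most 13 counts, so DMRTA1 had no tested relative to set beside it.

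The last list holds CDK1, SMAD3 and AKT1, set beside RGCC as partners, and the mitotic regulators CCNB1, CCNB2, CDC25C, WEE1 and PLK1. Of 8 tested, 5 fell (62.5%, beside 25.7% of all genes), 0 rose and 3 were not called by edgeR. The median log2 fold change was -0.57. At an unadjusted edgeR p below 0.05, 6 were lower and 0 were higher. CDK1, the kinase that RGCC binds, fell from 118 ± 26.1 to 57.8 ± 5.24 CPM (log2 fold change -1.03). The cyclins CCNB1 and CCNB2 fell by 0.66 and 0.71, CDC25C, the phosphatase that activates CDK1, by 0.67, and WEE1, the kinase that restrains it, by 0.49. The list was made mostly of CDK1 and its regulators, so nothing is read from how many of the falls were of these. PLK1 was not called at -0.18, nor were the partners SMAD3 at 0.01 and AKT1 at 0.06. Whether RGCC fell more than these genes was not tested.

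**Figure D4:**
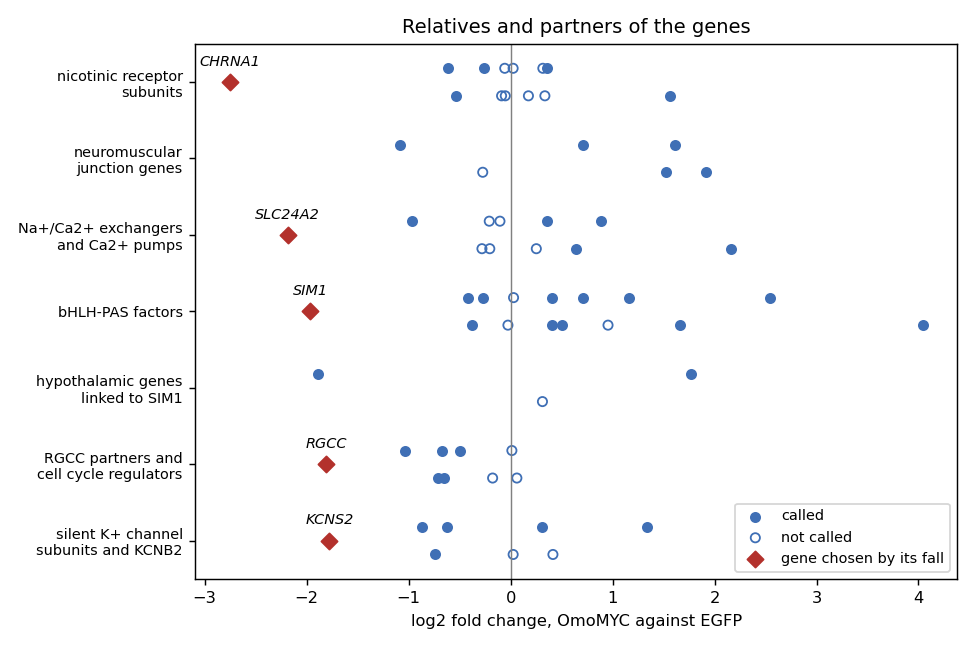
Log2 fold change of OmoMYC against EGFP (horizontal axis) for the 60 tested relatives and partners by list (rows; vertical offsets only separate points), filled where called and open where not called. Each of the 6 genes shown as a red diamond lies left of its own list, a place favoured by the choice of the largest falls. DMRTA1 has no tested relative. The list of RGCC partners and cell cycle regulators, made mostly of CDK1 and its regulators, has 5 called falls and no called rise.

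Genes near the 6 were examined by position. Of 48 tested genes that start within 1000 kb of 1 of them, 22 were called lower (45.8%, beside 25.7% of all genes). Another 4 were called higher, beside 27.3% of all genes, and the median log2 fold change of the 48 was -0.23. Neighbours on a chromosome are not independent of each other, and the shares rest on few genes per window. For KCNS2, 7 of 10 were called lower, and OSR2, an odd-skipped transcription factor, had the largest fall near any of the 6, from 0.694 ± 0.151 to 0.128 ± 0.0584 CPM (log2 fold change -2.37). NIPAL2, the next gene on the other side, rose by 1.499. For RGCC, 6 of 12 were called lower, between -0.56 and -0.26, NAA16 next to it at -0.42, and VWA8 on the other side was not called at 0.03. For SIM1, 3 of 5 were called lower, all 858 to 943 kb downstream, and ASCC3 next to it was not called at -0.22.

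CHRNA1 had 3 of 10 genes called lower and 2 higher, with CHN1, a Rac regulator next to it, at -0.54, WIPF1 on the other side not called at -0.14, and GPR155 higher at 1.97. SLC24A2 had 2 of 8 called lower, with ACER2 not called at -0.31 and MLLT3 higher at 0.53. DMRTA1 had 1 of 3 called lower, MTAP, the methylthioadenosine phosphorylase, at -0.74, while CDKN2B next to it was not called at -0.85 and 0.446 ± 0.148 CPM with EGFP. ELAVL2, on the far side at 1234363 bases, was not called at -0.20. SLC24A2 and DMRTA1 lie on the same arm of chromosome 9, with 2657788 bases between them, an interval looked at after their positions were seen. Of 7 tested genes in it, 2 were called lower and 1 higher. None fell as much as SLC24A2 or DMRTA1, which were themselves chosen as largest falls.

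**Figure D5:**
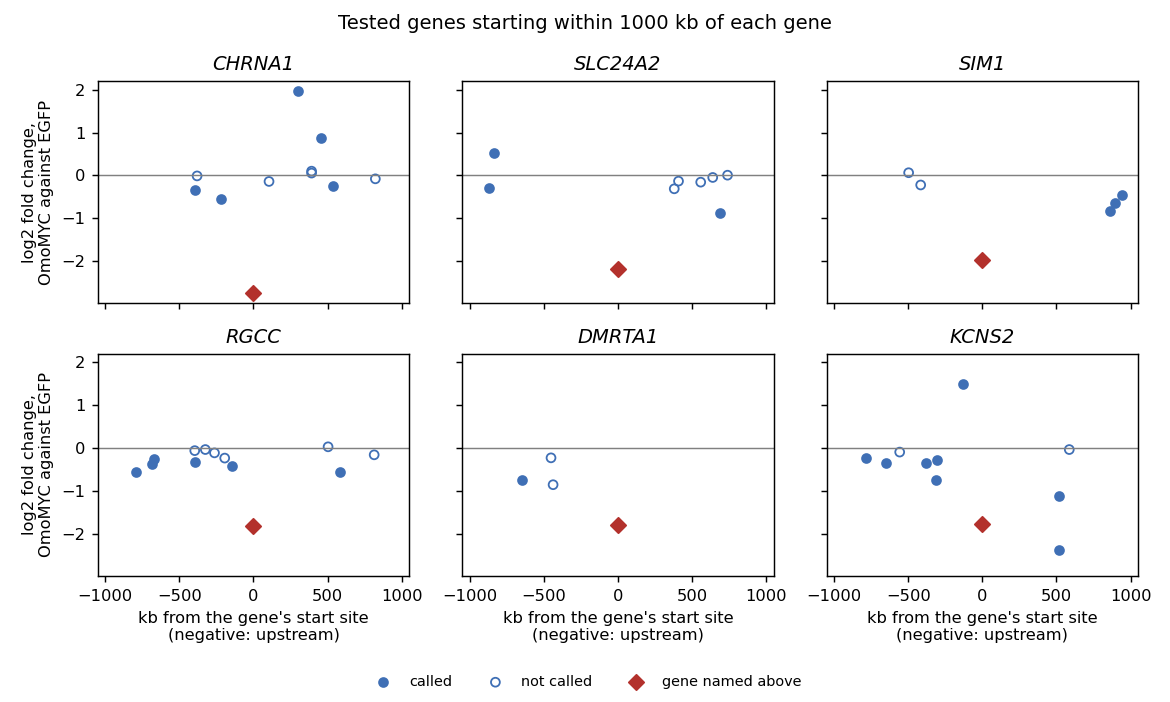
Log2 fold change of OmoMYC against EGFP (vertical axis) for tested genes that start within 1000 kb of each of the 6 genes (horizontal axis in kb, negative upstream in the direction of transcription), filled where called and open where not called. Each of the 6 genes (red diamond) lies below all its neighbours except KCNS2, a place favoured by the choice of the largest falls. OSR2, which fell more than KCNS2, was under the minimum of 1 CPM in both groups.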

How the data were processed

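RNA-seq of 14 CHP-134 libraries was analysed from 2 tables of counts per gene. After adapter trimming (Cutadapt), the authors used STAR for alignment to hg19 and featureCounts for counting, and deposited whole-number counts without normalization. Versions, annotation and strand setting are not given in the sources used here. The study names its replicates biological. All columns were used. Each experiment was analysed alone in R 4.3.3 with edgeR 4.0.16 (filterByExpr, TMM scaling, robust quasi-likelihood test), with Benjamini-Hochberg adjustment over all genes tested and a threshold of 0.05 for a call. The fits were tested on simulated data. CPM used TMM-scaled library sizes, RPKM used the union of annotated exons, and a prior count of 2 entered log2 CPM. Libraries held 28060817 to 53451641 counts, and the few counts of low genes set their precision.

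Alternatives were DESeq2 1.42.0, limma-voom (limma 3.58.1), RLE factors, scaling by library size alone, leaving out the filter, a filter of 10 counts per library, a block for replicate number, a term for parental replicates 1 and 2 against 3 and 4, other minimum levels, and leaving out each library. Named genes were the 6 genes, MYC, MYCN, the next 4 falls, the 2 genes most alike to each, adjacent protein-coding genes, and genes of 8 lists of relatives and 4 of cell type markers. STK3, GALNT5, other genes within 1000 kb and the chromosome 9 interval were added after their values were seen. The 6 genes and the lists were chosen with earlier results of these data known, and 1 gene of the lists is not reported here. Figures were drawn with matplotlib 3.10.9.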

Additional observations from a re-analysis of the deposited data

How the results depend on the processing

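The log2 fold changes of the 6 genes with OmoMYC stayed negative under all 13 alternatives and lay between -2.96 and -1.59. Their place in the order was less firm, since 4 to 5 of them stayed among the 6 largest falls when 1 library was left out, 5 at a minimum of 2 CPM or with limma-voom, and 3 at a minimum of 0.5 CPM, where NEUROD6, ANGPT1 and GALNT5 entered. CHRNA1 and SLC24A2 stayed among them under each of these settings. Calls of relatives with OmoMYC ranged from 16 to 20 lower and 14 to 22 higher, and the replicate block gave 19 and 22.

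In parental cells, 0 of the 6 genes were called under all 16 alternatives. Of the relatives, 1 was called lower with the replicate block and 1 with the term for replicates 1 and 2 against 3 and 4, in both fits the calcium pump ATP2B4 (log2 fold change -0.14, edgeR adjusted p = 0.0350 and 0.0294). Over all genes, calls with dTAG47 were few and unstable, 6 lower and 17 higher by the test used here. They came to 16 and 43 with DESeq2, 362 and 306 with the replicate block, 420 and 374 with the term for the sets of replicates, and 2 to 32 and 4 to 52 with 1 library left out, highest without dTAG47 replicate 2 (32 and 52). Library size alone gave 11 higher. Same-numbered libraries correlated in their deviations at -0.07 to 0.29 in the OmoMYC experiment and at 0.01 to 0.16 in the parental one. Not every library correlated best with its own number. Each DMSO library correlated best with a dTAG47 library of its own set, replicates 1 and 2 or 3 and 4. Such weak correlations cannot settle whether the numbers pair the libraries.

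Depth limits SIM1 most, at 10 to 53 counts per library. The separate making of the EGFP and OmoMYC lines limits every comparison of the first experiment.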

Other observations

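Fibroblast markers, whose sum was lower with OmoMYC, moved in both directions. PDGFRA, a growth factor receptor of mesenchymal cells, was lower with OmoMYC (38.8 ± 4.001 against 14.9 ± 0.720 CPM, EGFP first), and so was COL1A2, a collagen I chain (15.7 ± 1.14 against 7.78 ± 1.16 CPM). COL1A1, the other collagen I chain, was higher (21.2 ± 3.48 against 31.5 ± 4.43 CPM), and so was DCN, decorin (0.321 ± 0.156 against 0.828 ± 0.224 CPM). All 4 differences were called by edgeR, with log2 fold changes of -1.38, -1.02, 0.57 and 1.39. COL3A1 was not called, and LUM was not tested.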
